A study of Mus musculus with 8 samples.

Results

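The cytosolic heat shock genes described here are 10 genes of the Hsp70, Hsp110, Hsp90, Hsp40 and small heat shock families, taken by symbol from a table of 17500 genes measured in mouse retina. They are Hspa8, Hspa1a, Hspa1b and Hspa4 of the Hsp70 superfamily, Hsph1 of the Hsp110 branch, Hsp90aa1 and Hsp90ab1, the J-domain genes Dnaja1 and Dnajb1, and Hspb1. All 10 symbols were found, and all 10 were among the 16797 genes kept for testing by a filter on low counts. The filter takes the counts of all mice together, and the member with the fewest reads, Hspb1, had at least 299 counts in every mouse.

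The study asked how the retinal transcriptome of adult mice changed after loss of the RNA-binding protein Rbfox2, a regulator of alternative splicing and mRNA stability. Poly(A)-selected RNA of the whole retina was sequenced from 4 mice of the group labelled Rbfox2 KD, written Rbfox2-/- by the study, and from 4 control mice, with 1 library per mouse. The Rbfox2 KD mice were Rbfox2 fl/fl animals that carried a tamoxifen-inducible Cre transgene, which is not confined to neurons, and tamoxifen was given by oral gavage at young adult age. The controls were age-matched heterozygous Rbfox2 fl/+ mice. They therefore carried 1 floxed allele, and whether they also carried Cre is not given in the sources used here. The labels list tamoxifen downregulation over 4 months for the mice of both groups, whereas the methods describe tamoxifen for the fl/fl animals only. All 8 mice were on a C57BL/6J background and 6 months old. The Rbfox2 KD mice are named M893, M901, M902 and M909 and the controls M833, M894, M896 and M898.

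Heat shock proteins are molecular chaperones. Hsp70 proteins bind exposed hydrophobic stretches of unfolded clients in a cycle driven by ATP, J-domain proteins (Hsp40) hand clients over and stimulate the ATPase, Hsp110 proteins exchange the nucleotide so that clients are released, Hsp90 proteins complete the folding of kinases, steroid receptors and other clients, and small heat shock proteins hold unfolded proteins without ATP. Some of these genes, such as Hspa8 and Hsp90ab1, are expressed constitutively in most cells, while Hspa1a, Hspa1b, Dnajb1 and Hspb1 are known as targets that heat shock factor 1 (Hsf1) induces strongly under stress.

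Depth ran from 160630226 to 211283591 counts on genes per mouse. Rbfox2 itself had 149.6 ± 5.39 CPM in controls and 56.4 ± 3.15 CPM in Rbfox2 KD retinas (the depth-scaled count, here after TMM scaling of library sizes, mean ± SD, n = 4 each), a log2 fold change of -1.41 ± 0.046 (SE), and the groups did not overlap. The defining markers of rods, cones, bipolar, amacrine, horizontal and ganglion cells and of Muller glia were present in all 8 libraries, as the tissue label states. The summed markers of 3 of these 7 cell types did not overlap between the groups, where 7.04% of single genes tested did not. Cone markers (Opn1sw, Opn1mw and Arr3) were 598 to 608 CPM in controls and 648 to 757 CPM in Rbfox2 KD mice. Horizontal cell markers (Lhx1, Onecut1 and Calb1) were 88.9 to 92.7 and 71.6 to 75.0 CPM, and Muller glia markers (Rlbp1, Glul and Slc1a3) were 3887 to 4228 and 3620 to 3804 CPM. In each sum a marker went the other way. Opn1mw had means of 105.9 CPM in controls and 90.6 CPM in Rbfox2 KD mice. Lhx1 had 8.44 and 9.58 CPM, and Rlbp1 had 449 and 466 CPM. Sums of markers that go both ways cannot show whether a whole cell type shifted. They differ between the same groups as all comparisons below, and their part in the results was not tested. Some libraries stood apart from the rest. M901 and M902 differed from the other mice along the first principal component (40.5% of the variance). They alone had Xist above 1000 CPM, against 1.71 to 2.22 CPM in the other 6 libraries, and their summed ciliary epithelium markers (Best2, Slc13a4 and Wfdc1) reached 4.55 to 4.69 CPM against 22.5 to 48.8 CPM in the others. M909 stood apart along the second component (19.2%), with 24.7 CPM of Krt5, a keratin of surface epithelia, against at most 2.47 CPM elsewhere. The control M833 had summed ganglion cell markers (Rbpms, Pou4f1 and Nefl) of 335 CPM against 436 to 582 CPM in the other 7 mice. Values without M909 and without M901 and M902 are given with the results. Xist is transcribed from the inactive X chromosome of females. The labels used here give no sex, and the libraries with high Xist are both in the Rbfox2 KD group. A difference of sex inside that group is possible and was not tested. Without M901 and M902, only M893 and M909 remain in that group. That fit therefore cannot separate sex from other differences between the libraries. The labels do not say that the mice of a group were processed apart, and p-values measure the spread between mice.

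Regulatory sequence is shown first, since heat shock factors act on their targets through short elements near the start of transcription. They bind inverted repeats of the unit GAA. The 300-base windows from 250 bases before to 50 after each RefSeq start (GRCm38.p6) were searched for the 2-unit forms GAANNTTC and TTCNNGAA, and for the 3-unit forms made by adding a further inverted unit after 2 free bases. Each form reads the same on both strands except the 3-unit forms, which turn into each other, and each 3-unit match also holds a match to both 2-unit forms. Windows were present for 7 of the 10 members (Hspa1a, Hspa1b, Hspa4, Hsph1, Dnaja1, Dnajb1 and Hspb1). Some genes have more than 1 listed start, and these members had 11 windows in all. A 2-unit form was found in 6 of the 11 windows, from 5 of the 7 members, and in 15.1% of all 32851 windows. The 3-unit form was found in 2 of the 11 windows, both of Hsph1 and overlapping each other, and in 0.603% of all windows. In the sites below, 30 bases each on the strand of the gene, capitals mark the matched element.
Hspa1a, chr17:34972242-34972271, minus strand: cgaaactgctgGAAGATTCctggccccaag
Hsph1 before the start, chr5:149636351-149636380, minus strand: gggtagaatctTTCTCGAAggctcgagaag
Hsph1 after the start, chr5:149636287-149636316, minus strand: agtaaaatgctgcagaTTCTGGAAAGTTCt
Dnaja1, chr4:40722333-40722362, plus strand: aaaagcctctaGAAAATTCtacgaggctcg
Hspb1 distal, chr5:135887791-135887820, plus strand: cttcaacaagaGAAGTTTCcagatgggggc
Hspb1 proximal, chr5:135887811-135887840, plus strand: agatgggggcaGAACCTTCctggccccgcc
The element of Hspa1a lay at bases -104 to -97 from the start. The elements of Hspb1 began at -117 and -97, and that of Dnaja1 began at -124 from the first of its 3 listed starts. In Hsph1 the 2-unit element began at -33 and the 3-unit element lay at 37 to 49 after the first of its 2 listed starts, or at -54 and 16 to 28 from the other. None of the letters searched were in the windows of Hspa4 or Dnajb1. A match describes the sequence and is no measurement of binding.

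Hspa1a and Hspa1b are neighbouring genes of the minus strand of chromosome 17, each with a single exon (GENCODE M21, GRCm38: Hspa1a chr17:34969190-34972156 and Hspa1b chr17:34956436-34959238). The 250 bases before their starts are given in full because they show how alike the pair is. Capitals again mark the 2-unit element.
Hspa1a, chr17:34972157-34972406, minus strand: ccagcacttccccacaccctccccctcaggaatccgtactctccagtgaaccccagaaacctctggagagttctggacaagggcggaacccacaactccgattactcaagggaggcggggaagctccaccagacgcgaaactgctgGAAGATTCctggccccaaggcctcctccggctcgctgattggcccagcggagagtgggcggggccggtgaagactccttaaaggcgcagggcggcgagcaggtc
Hspa1b, chr17:34959239-34959488, minus strand: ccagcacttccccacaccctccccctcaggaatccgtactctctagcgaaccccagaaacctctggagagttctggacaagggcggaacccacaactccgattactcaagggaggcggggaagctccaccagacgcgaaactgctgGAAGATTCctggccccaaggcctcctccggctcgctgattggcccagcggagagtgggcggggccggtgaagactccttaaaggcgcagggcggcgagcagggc
These stretches were identical at 247 of 250 bases, with the same element at the same distance from the start. The likeness reached into the transcripts, where 1074 of 2818 windows of 150 bases in the Hspa1a transcript (38.1%) occurred without a mismatch in the Hspa1b transcript. The deposited counts used uniquely mapped reads, so reads from shared stretches can be lost and the split between the genes is uncertain.

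The other 8 members were spread over 7 chromosomes (GENCODE M21, GRCm38). Hspa8 is at chr9:40800984-40810087, Hspa4 at chr11:53259814-53300457, Hsph1 at chr5:149614287-149636376 and Hspb1 at chr5:135887919-135889563. Hsp90aa1 is at chr12:110690605-110702728, Hsp90ab1 at chr17:45567775-45573271, Dnaja1 at chr4:40722150-40737149 and Dnajb1 at chr8:83608193-83612653. The longest coding transcripts of these genes had from 2 exons (Hspb1) to 19 (Hspa4).

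Rbfox proteins recognize TGCATG in RNA, so the sense strand of the last 1000 bases of the longest coding transcript was searched for these letters. Of the 9 members with a transcript that long, 4 held TGCATG, and 26.7% of 19349 mouse genes did. Each of the 4 sites lay in an untranslated region of the annotated transcript. They are shown with 12 bases on either side and the element in capitals.
Hspa1a, chr17:34969494-34969523, minus strand: cgtttataatctTGCATGgtggttgcactg
Hspa4, chr11:53260293-53260322, minus strand: gaaaggaaggaaTGCATGcttatgtgagca
Hsp90aa1, chr12:110691204-110691233, minus strand: tgtagttaattcTGCATGtattagtcttag
Dnaja1, chr4:40736173-40736202, plus strand: caaaccaaaacaTGCATGcaatcgagagag
Hspa8 and Hsph1, the members with the largest fold changes below, had no TGCATG in this stretch. The study gives the element as (U)GCAUG, in alternative exons or the introns beside them. The shorter form GCATG, the introns and the rest of the transcripts were not searched. Neither presence nor absence of the letters was tested for an effect.

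Compared per length, the cytosolic heat shock genes covered about 2 orders of magnitude in the retina. Levels are the deposited FPKM values (fragments scaled by gene length and library total), averaged over all 8 mice. Hsp90aa1 had the highest mean level at 255 FPKM, followed by Hsp90ab1 at 249.7 FPKM and Hspa8 at 229 FPKM. Their ranges over the mice overlapped (233 to 269, 226 to 272 and 199.6 to 287 FPKM), so the order of these 3 was not separated by the spread between mice. They ranked 117th, 121st and 133rd of the 17500 genes by mean FPKM. Hspa4 came next at 46.0 to 54.4 FPKM and stood clear of its neighbours on both sides.

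Dnajb1 (24.1 to 30.1 FPKM) overlapped Hsph1 (16.2 to 25.1 FPKM), and Hsph1 overlapped Hspa1b (14.7 to 19.6 FPKM) and Hspa1a (14.95 to 19.5 FPKM). Dnaja1 (12.3 to 14.3 FPKM) lay below all of these. Hspb1 was the lowest at 2.06 to 3.06 FPKM, with a mean 102-fold under that of Hsp90aa1, and ranked 11289th. The stress-inducible pair Hspa1a and Hspa1b was thus present in every retina at between 14.7 and 19.6 FPKM.

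**Figure D1:**
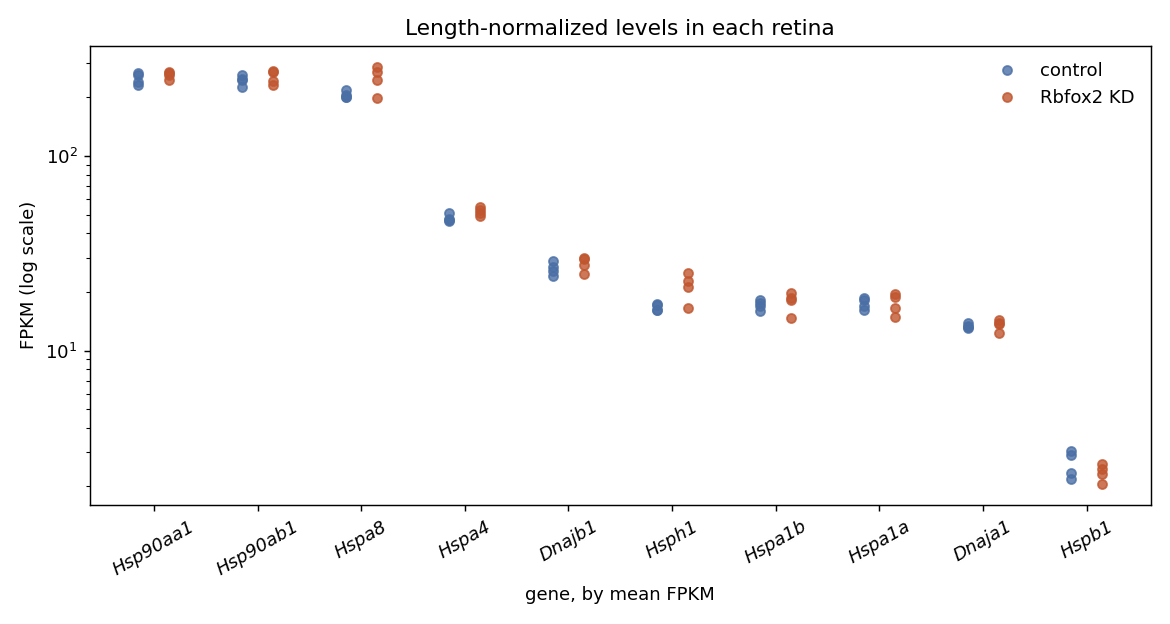
Deposited FPKM (y axis, log scale) of each member (x axis, ordered by mean) in the 4 control and 4 Rbfox2 KD retinas, with 1 point per mouse. Hsp90aa1, Hsp90ab1 and Hspa8 lie at 199.6 FPKM or above, Hspb1 lies at 2.06 to 3.06 FPKM, and the other members lie between 12.3 and 54.4 FPKM.

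Between the groups, none of the 10 members passed the test over all genes. Adjusted p-values ran from 0.231 to 0.961 (edgeR's quasi-likelihood test, with the Benjamini-Hochberg method over 16797 genes), where 11 genes or 0.0655% of all genes tested had an adjusted p under 0.05. With an unadjusted p under 0.05, 3 members (Hspa8, Hsph1 and Hspa4) had the higher mean in Rbfox2 KD retinas, beside 6.42% of all genes tested, and 0 members had the lower mean, beside 6.87%. A log2 fold change above 0 was found for 9 of 10 members and for 50.7% of all genes. Its median was 0.073 over the members and 0.0016 over all genes. In 0 of 10 members did the groups not overlap, against 7.04% of all genes. In bulk retina, more or less RNA per cell cannot be told apart from more or fewer cells of a type that expresses a gene.

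Hspa8 encodes Hsc70, the constitutive Hsp70 that also strips clathrin from vesicles. It was measured at 437, 419, 421 and 454 CPM in controls, in the order M833, M894, M896, M898, and at 565, 612, 523 and 423 CPM in Rbfox2 KD mice, in the order M893, M901, M902, M909. Thus 3 Rbfox2 KD mice lay above all controls and M909 lay inside the control range. The means were 433 ± 16.5 CPM in controls and 531 ± 80.6 CPM in Rbfox2 KD retinas (SD, n = 4 each), with a log2 fold change of 0.29 ± 0.095 (SE) and an adjusted p of 0.268. The exact two-sided permutation test on log2 CPM gave p = 0.0857, where the smallest p that 4 mice against 4 allow is 0.0286.

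Hsph1 encodes Hsp105, the Hsp110 protein that serves Hsp70 as a nucleotide exchange factor. It had 61.4, 55.5, 55.7 and 58.9 CPM in the controls and 78.5, 88.5, 74.7 and 57.7 CPM in the Rbfox2 KD mice, in the same order of mice, which is kept from here on. Again M893, M901 and M902 lay above every control and M909 lay among the controls. Its log2 fold change was 0.37 ± 0.11 (SE), the largest of the 10 members, with an adjusted p of 0.231 (edgeR) and an exact permutation p = 0.0857. The pattern over mice was close to that of Hspa8, with M901 highest, then M893, then M902, then M909 in both genes. Among the 7 members with a window, it was the only one with a 3-unit element (shown above). Hspa8, Hsp90aa1 and Hsp90ab1 had no window to search, and a link between element and fold change was not tested.

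Hspa4 encodes Apg-2, another member of the Hsp110 branch that acts with Hsp70. Its values were 239.9, 211, 215 and 216 CPM in controls and 244, 256, 240.1 and 229 CPM in Rbfox2 KD retinas. The control M833, the mouse with low ganglion cell markers, lay far above the other controls and close to M902, while M909 lay between M833 and the other controls. Over all 8 mice the log2 fold change was 0.13 ± 0.050 (SE), with an adjusted p of 0.307 (edgeR) and an exact permutation p = 0.0571. The part of ganglion cell content in this value was not tested.

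Without M909 the log2 fold changes grew to 0.39 for Hspa8, 0.48 for Hsph1 and 0.16 for Hspa4, with adjusted p-values of 0.0580, 0.0503 and 0.159 (edgeR), and 6 of 10 members had an unadjusted p under 0.05. Without M901 and M902 they shrank to 0.19, 0.23 and 0.097, and 0 members had an unadjusted p under 0.05. The share of all genes at that p was not counted in these fits, so these counts have no background beside them. DESeq2 called Hspa8 (adjusted p = 0.0478) and Hsph1 (adjusted p = 0.0199) from all 8 mice, in a fit that called 460 genes in all, whereas limma-voom called 0 of 10 members. Over 18 alternatives the log2 fold change stayed above 0 and ran from 0.19 to 0.39 in Hspa8 (adjusted p from 0.0478 to 0.879), from 0.22 to 0.48 in Hsph1 (0.0199 to 0.858) and from 0.076 to 0.17 in Hspa4 (0.121 to 0.935). The call of Hspa8 and Hsph1 thus depended on the test.

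**Figure D2:**
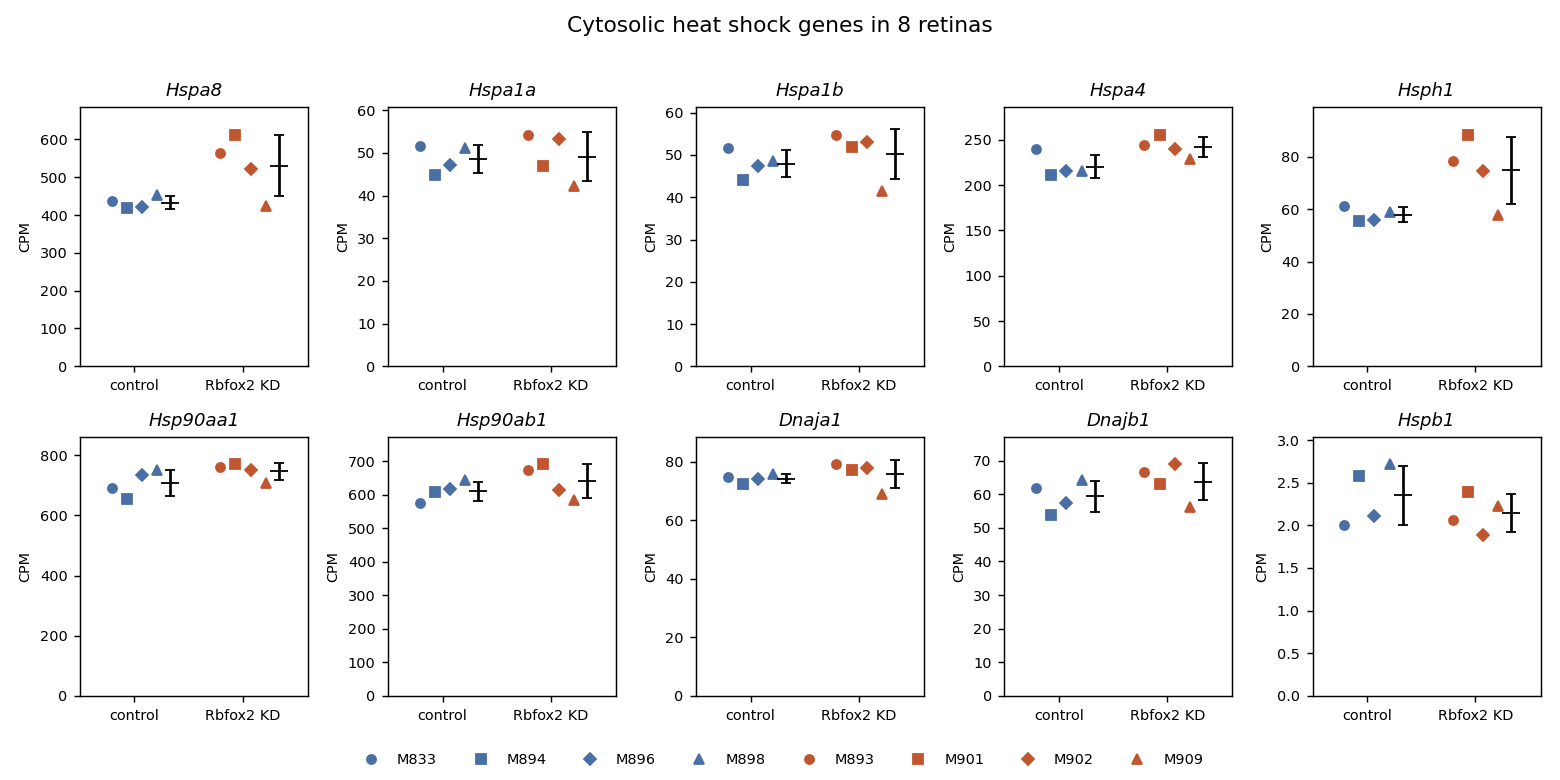
TMM-scaled CPM (y axis, from 0) of the 10 members in each mouse, with marker shapes for mice, and black bars for mean ± SD of 4 mice. In Hspa8 and Hsph1 the Rbfox2 KD mice M893, M901 and M902 lie above all 4 controls and M909 lies with the controls, while the groups overlap in all 10 genes.

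In the stress-inducible Hsp70 genes the means of the groups differed by less than the spread between mice. Hspa1a had 51.6, 44.7, 47.2 and 51.0 CPM in controls and 54.2, 47.0, 53.2 and 42.1 CPM in Rbfox2 KD mice, a log2 fold change of 0.014 ± 0.082 (SE, adjusted p = 0.961, edgeR). Hspa1b had 51.7, 44.1, 47.3 and 48.6 CPM in controls and 54.8, 51.8, 53.0 and 41.5 CPM in Rbfox2 KD mice, a log2 fold change of 0.068 ± 0.084 (SE, adjusted p = 0.767, edgeR). In both genes M909 was the lowest of all 8 mice. The sign for Hspa1a turned under 7 of 18 alternative settings and that for Hspa1b under 1 of 18, so no direction is drawn for either. With the counts of the pair added to 1 feature before the fit, an alternative chosen after the data were seen, the log2 fold change was 0.041.

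Within each mouse, the ratio of Hspa1a to Hspa1b was near 1, with log2 ratios from -0.0056 to 0.071 in controls and from -0.14 to 0.021 in Rbfox2 KD mice. The lowest ratio was that of M901, and the other 7 mice lay above -0.015. The summed level of the inducible pair against the constitutive Hspa8 gave log2 ratios of CPM of -2.08, -2.24, -2.16 and -2.19 in the controls and -2.37, -2.63, -2.30 and -2.34 in the Rbfox2 KD mice. These ranges did not overlap, and the means were -2.17 ± 0.065 in controls and -2.41 ± 0.15 in Rbfox2 KD mice (SD, n = 4 each). M909 lay below every control in this ratio although its Hspa8 lay inside the control range, and its Hspa1a and Hspa1b were the lowest of all 8 mice. No test was made on the ratios, and the share of non-overlapping ratios over other gene pairs was not counted. Among single genes tested, 7.04% did not overlap. The ranges of the other within-mouse ratios given here overlapped between the groups.

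Hsp90aa1 and Hsp90ab1 encode the inducible and the constitutive cytosolic Hsp90. Hsp90aa1 had 693, 655, 735 and 751 CPM in controls and 760.4, 769.9, 752 and 706 CPM in Rbfox2 KD mice, and Hsp90ab1 had 574, 608, 617 and 644 and 673, 691, 614 and 585 CPM. In each gene M901 and M893 were the highest, and M909 lay inside the control range. The log2 fold changes were 0.076 ± 0.051 and 0.069 ± 0.059 (SE), with adjusted p-values of 0.555 and 0.647 (edgeR). The within-mouse log2 ratio of Hsp90aa1 to Hsp90ab1 in CPM was 0.21 ± 0.074 in controls and 0.22 ± 0.068 in Rbfox2 KD mice (SD, n = 4). The ranges of 0.11 to 0.27 and 0.16 to 0.29 overlapped.

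Dnaja1 and Dnajb1 are J-domain partners of Hsp70. Dnaja1 was the steadiest member among controls at 74.8, 72.2, 74.1 and 75.7 CPM, a coefficient of variation of 1.98%, against 79.0, 77.2, 77.9 and 68.8 CPM in Rbfox2 KD mice. M893, M901 and M902 lay above all controls and M909 lay below all of them. For Dnaja1 the log2 fold change was 0.029 ± 0.046 (SE, adjusted p = 0.824, edgeR), and its sign turned under 2 of 18 settings. Dnajb1 had 61.9, 53.9, 57.3 and 64.3 CPM in controls and 66.5, 63.1, 68.9 and 56.2 CPM in Rbfox2 KD mice, a log2 fold change of 0.10 ± 0.072 (SE, adjusted p = 0.577, edgeR). The log2 ratio of Dnajb1 to Dnaja1 was -0.32 ± 0.087 in controls and -0.25 ± 0.054 in Rbfox2 KD mice (SD, n = 4), with overlapping ranges.

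Hspb1, also known as Hsp25 in the mouse, is the small heat shock protein of this group and was the only member with a mean below that of controls. It had 2.01, 2.58, 2.11 and 2.72 CPM in controls and 2.07, 2.40, 1.88 and 2.22 CPM in Rbfox2 KD mice, which rest on 299 to 481 counts per mouse. This gave a log2 fold change of -0.13 ± 0.13 (SE, adjusted p = 0.700, edgeR). The controls alone spread over a coefficient of variation of 14.8%, so a difference of this size was not separable from the spread between mice.

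**Figure D3:**
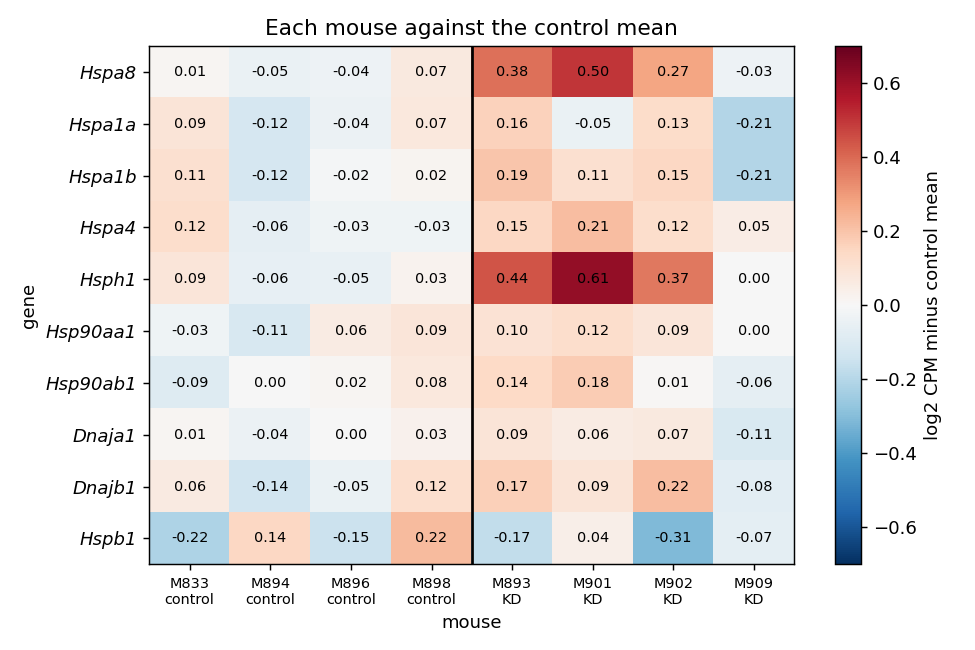
Heat map of log2 CPM of each member (rows) in each mouse (columns) minus the mean log2 CPM of the 4 controls, with the value printed in each cell and red for higher. The highest values are those of Hsph1 (0.61) and Hspa8 (0.50) in M901, and the column of M909 runs from -0.21 to 0.05.

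Read by mouse rather than by gene, M909 differed from the other Rbfox2 KD mice in most members. M893, M901 and M902 all lay above every control in 6 of 10 members (Hspa8, Hspa1b, Hspa4, Hsph1, Hsp90aa1 and Dnaja1), as they did in 8.61% of all genes tested. The split of M909 from these mice was chosen after the values of the members were seen, so these counts are only a description. Of those 6 members, margins were narrow in Hsp90aa1 (M902 at 751.6, M898 at 751.4 CPM) and Hspa4 (M902 at 240.1, M833 at 239.9 CPM). The same held for Hspa1b (M901 at 51.82, M833 at 51.73 CPM). M909 lay above every control in 0 of 10 and below every control in 3 (Hspa1a, Hspa1b and Dnaja1), beside 22.2% and 22.1% of all genes. It was the lowest of the 4 Rbfox2 KD mice in 9 of 10, with Hspb1 as the exception, beside 31.1% of all genes. The members vary together over the mice, so their counts are not independent of each other. The 10 members together held 0.219% to 0.241% of the counts on genes in controls, 0.243% to 0.263% in M893, M901 and M902, and 0.220% in M909. Rbfox2 itself did not set M909 apart, at 59.4 CPM against 53.6 to 58.9 CPM in the other Rbfox2 KD mice. The summed cornea and conjunctiva markers (Krt5, Krt12 and Krt14) were 27.9 CPM in M909 against 0.622 to 3.46 CPM in the other 7 mice. The part of that tissue in the heat shock values of M909 was not tested.

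**Figure D4:**
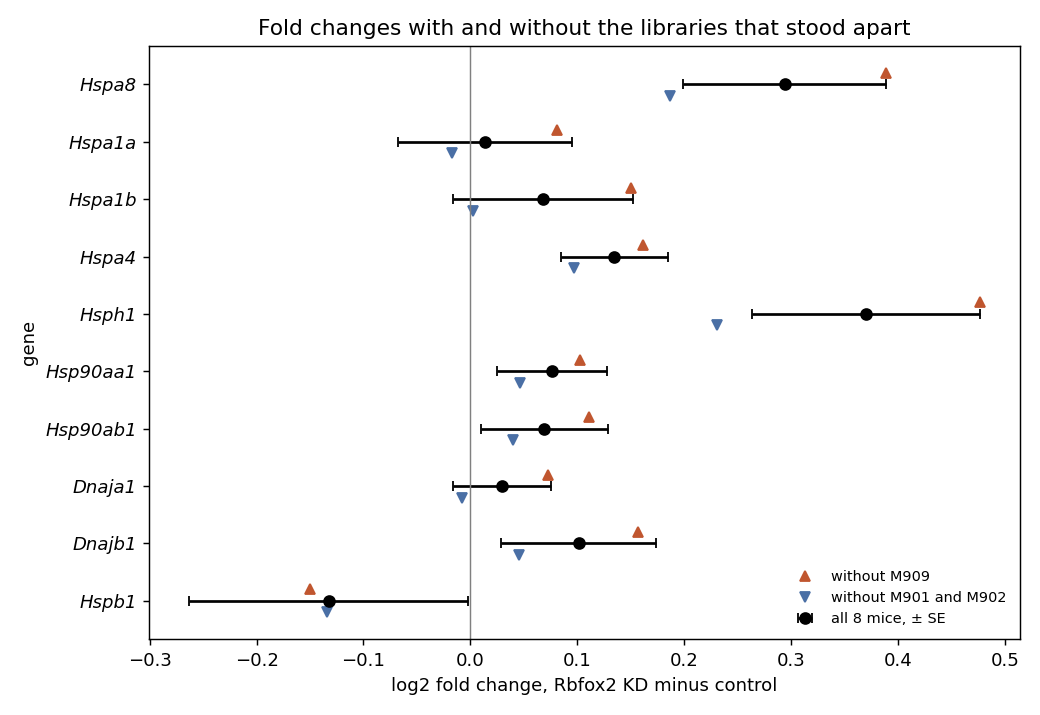
Log2 fold change of Rbfox2 KD minus control (x axis) for each member (y axis), from all 8 mice with ± SE bars, without M909 and without both M901 and M902. Hspa8 and Hsph1 stay above 0 in all 3 fits (0.19 to 0.39 and 0.23 to 0.48), and Hspa1a and Dnaja1 cross 0 without M901 and M902.

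Across the 8 mice, Pearson's r of log2 CPM was highest between Hspa8 and Hsph1 (0.99), and remained 0.98 after the mean of each group was subtracted. Among Hspa1a, Hspa1b, Dnaja1 and Dnajb1 the pairwise r ran from 0.85 to 0.96, and from 0.86 to 0.96 after that subtraction. These genes did not stand apart as a block. Hspa4 and Hsph1 had r = 0.89. After the subtraction, Dnaja1 had r = 0.88 with Hspa8 and 0.86 with Hsph1. Hspb1 was the odd member, with r between -0.48 and 0.28 to the others. All points of these correlations share their libraries, and they are given as a description of 8 mice.

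A score per mouse was formed as the mean over the 10 members of log2 CPM minus its mean over the 8 mice. It was -0.033, -0.10, -0.080 and 0.020 in the controls and 0.12, 0.14, 0.063 and -0.12 in the Rbfox2 KD mice. Among 13746 other genes with a mean above 1 CPM, Vcp was most like this score (r = 0.988), with 155, 149, 153 and 158 CPM in controls and 163, 165, 159.7 and 151 CPM in Rbfox2 KD mice. Vcp encodes p97, an ATPase that extracts ubiquitinated proteins for degradation. Next came Slc35c2 (r = 0.970), Crebl2 (0.970), Ahsa1 (0.969), Fam134a (0.969), Sf3b2 (0.968), Phb (0.967), Dis3l (0.964), Rnf26 (0.964) and Ssr2 (0.963). Ahsa1, which stimulates the ATPase of Hsp90, had 52.3, 49.2, 49.9 and 55.0 CPM in controls and 58.6, 59.3, 59.6 and 47.4 CPM in Rbfox2 KD mice. Of these 10 genes, 5 were also among the 10 most like the score after the group means were subtracted, Vcp first in both. The r values rest on 8 mice and on shared libraries.

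Of the factors that set heat shock gene expression, Hsf1 had 44.1, 46.6, 38.1 and 37.3 CPM in controls and 44.6, 45.0, 47.8 and 41.5 CPM in Rbfox2 KD mice, a log2 fold change of 0.11 ± 0.076 (SE, adjusted p = 0.576, edgeR). Hsf2, a related factor that can pair with Hsf1, had 35.3, 32.9, 32.5 and 32.0 CPM in controls and 37.5, 34.6, 40.3 and 36.1 CPM in Rbfox2 KD mice. M893, M902 and M909 lay above all controls in Hsf2, and M901 lay inside the control range. Its log2 fold change was 0.16 ± 0.054 (SE, adjusted p = 0.273, edgeR; exact permutation p = 0.0571). None of the 4 regulators listed (Hsf1, Hsf2, Hsf4 and Hsbp1) passed the adjusted test by edgeR, DESeq2 or limma-voom. Hsf2 was the 1 of 4 with an unadjusted p under 0.05 and the higher mean, beside 6.42% of all genes tested.

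The wider chaperone network was described with 69 further genes, of which 0 passed the adjusted test by edgeR's quasi-likelihood fit or by limma-voom. The likelihood ratio test called 1 (Hsp90b1), and DESeq2 called 6 (Bag2, Dnajb2, Fkbp5, Hsp90b1, Hspa2 and Hspa5). With an unadjusted p under 0.05, 15 had the higher and 3 the lower mean in Rbfox2 KD retinas, that is 18 of 69 in both directions, beside 6.42% and 6.87% of all genes tested. The log2 fold change was above 0 for 51 of 69, beside 50.7% of all genes, with a median of 0.045. The groups did not overlap in 5 of 69 (Hsp90b1, Bag2, Dnajb2, Hspa2 and Hspa12a), beside 7.04% of all genes tested. Without M901 and M902 the 18 became 7, and with 1 surrogate variable in the fit 5. The share of all genes was not counted in these fits.

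Co-chaperones, the proteins that steer Hsp70 and Hsp90, were the longest list, with 7 of 20 higher and 1 of 20 lower at an unadjusted p under 0.05. These counts stand beside 6.42% and 6.87% of all genes tested. The 3 with the largest log2 fold changes were Bag2, an exchange factor of Hsp70 (0.28 ± 0.070, SE), Chordc1 (0.25 ± 0.095) and Ahsa2 (0.23 ± 0.072). Bag2 had 4.97, 5.42, 5.31 and 5.42 CPM in controls and 6.26, 6.94, 6.03 and 6.50 CPM in Rbfox2 KD mice, so all 4 Rbfox2 KD mice lay above all controls, M909 included (adjusted p = 0.179, edgeR). The Hsp70 to Hsp90 adaptor Stip1 had 140.1, 138, 139 and 143 CPM in controls and 167, 176, 159 and 132 CPM in Rbfox2 KD mice, and the Hsp70 cofactor St13 had 156, 148, 144 and 149 and 174, 187, 173 and 149 CPM. In both, M909 lay below the other 3 Rbfox2 KD mice, and in Stip1 below all controls. The gene with the lower mean was Fkbp5, an immunophilin of Hsp90 and a known glucocorticoid target, at 47.7, 34.0, 48.5 and 51.6 CPM in controls and 34.6, 31.9, 34.6 and 36.1 CPM in Rbfox2 KD mice (log2 fold change -0.41 ± 0.11, SE, adjusted p = 0.216, edgeR). The control M894 lay with the Rbfox2 KD mice in Fkbp5.

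Hspa2, Hspa4l, Hspa12a, Hspa12b, Hspa13 and Hspa14 were counted as further Hsp70 and Hsp110 genes. With an unadjusted p under 0.05, 0 of these 6 had the higher mean, beside 6.42% of all genes tested, and 1 the lower, beside 6.87%. This was Hspa2, a Hsp70 best known from the testis, with 18.4, 17.5, 18.2 and 18.5 CPM in controls and 16.4, 15.6, 14.4 and 13.2 CPM in Rbfox2 KD mice. All 4 Rbfox2 KD mice lay below all controls, with M909 the lowest (log2 fold change -0.28 ± 0.066, SE, adjusted p = 0.171, edgeR). Of 10 other J-domain genes 1 had the higher mean at an unadjusted p under 0.05, beside 6.42% of all genes tested. This was Dnajb2, a neuronal J-domain gene, at 115, 114, 111 and 114 CPM in controls and 130.2, 133, 129 and 119 CPM in Rbfox2 KD mice. The groups did not overlap in Dnajb2 (log2 fold change 0.17 ± 0.039, SE, adjusted p = 0.156, edgeR). Of 8 other genes listed as small heat shock genes, 3 had a log2 fold change above 0 and 5 below it. Hspb3 was the 1 of 8 with an unadjusted p under 0.05 and the lower mean, beside 6.87% of all genes tested. It had 0.417 ± 0.105 CPM in controls and 0.275 ± 0.0633 CPM in Rbfox2 KD mice (SD, n = 4). The list had a median log2 fold change of -0.090. Counts of 1 gene in lists this short are no result about the lists.

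Of the cytosolic chaperonin and prefoldin, which fold actin and tubulin, 3 of 14 genes had the higher mean at an unadjusted p under 0.05, namely Cct3 (0.17 ± 0.052), Cct5 (0.13 ± 0.040) and Cct7 (0.10 ± 0.039, log2 fold change with SE). The list had 13 of 14 log2 fold changes above 0, beside 50.7% of all genes, and a median of 0.054. Its 3 of 14 stand beside 6.42% of all genes. In each of Cct3, Cct5 and Cct7, M893, M901 and M902 lay above every control and M909 did not.

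Among the paralogs of mitochondria and endoplasmic reticulum (ER), 3 of 7 had the higher mean at an unadjusted p under 0.05, beside 6.42% of all genes tested. All 3 belong to the ER. Hspa5 (BiP, the Hsp70 of the ER) had 231, 234, 218 and 226 CPM in controls and 293, 324, 261 and 231 CPM in Rbfox2 KD mice, a log2 fold change of 0.29 ± 0.088 (SE, adjusted p = 0.243, edgeR). As in Hspa8, M909 lay inside the control range. Hsp90b1 (Grp94, the Hsp90 of the ER) had 393, 414, 362 and 368 CPM in controls and 492, 537, 443 and 517 CPM in Rbfox2 KD mice, and here all 4 Rbfox2 KD mice, M909 with them, lay above all controls. Its log2 fold change was 0.37 ± 0.065 (SE) with an adjusted p of 0.0837 (edgeR), the lowest adjusted p of these 69 genes and of the 10 members. Hyou1, the Hsp110 of the ER, had a log2 fold change of 0.18 ± 0.064 (SE, adjusted p = 0.299, edgeR).

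**Figure D5:**
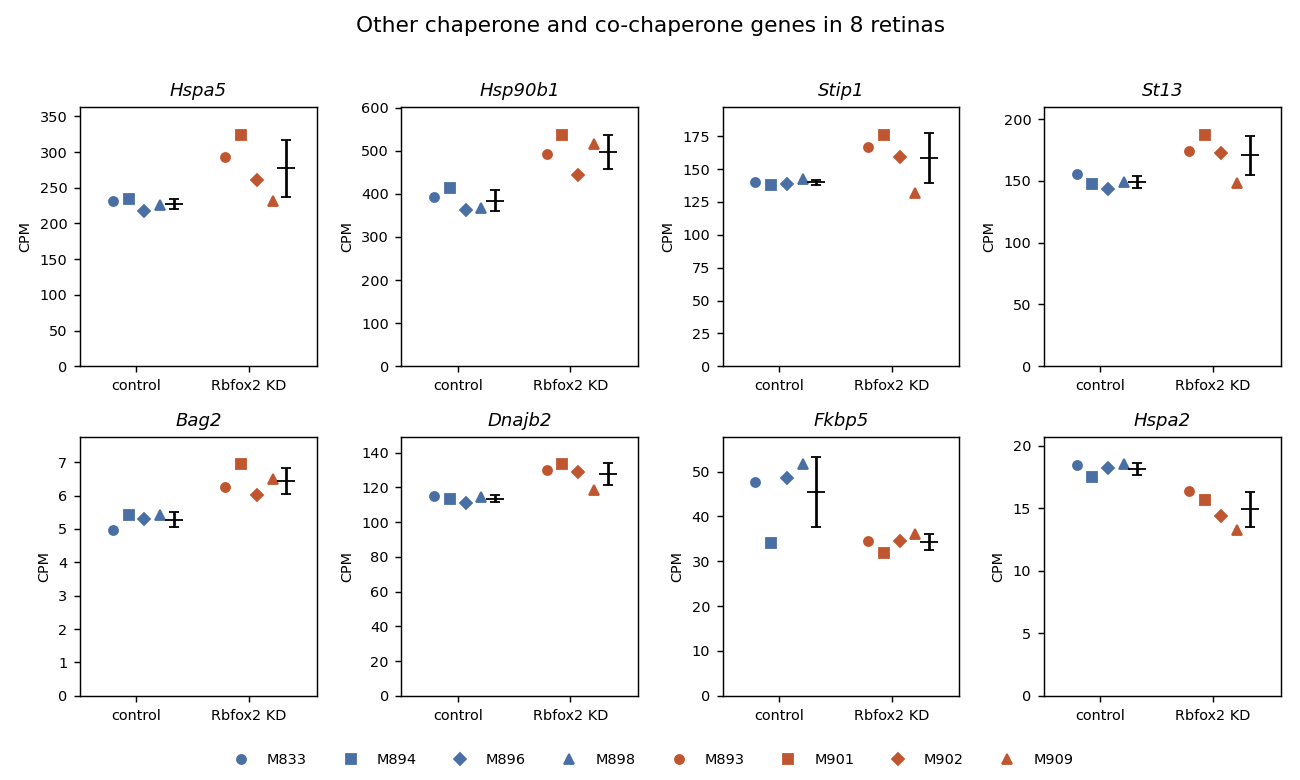
TMM-scaled CPM (y axis, from 0) of 8 other chaperone and co-chaperone genes in each mouse, with marker shapes for mice and black bars for mean ± SD of 4 mice. The groups do not overlap in Hsp90b1, Bag2, Dnajb2 and Hspa2, while in Hspa5, Stip1 and St13 M909 lies inside or below the control range. Over the 69 genes described, the groups did not overlap in 5, beside 7.04% of all genes tested.

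Immediate early genes, which respond within minutes to activity or handling, were counted as a check on sampling. Of 11 such genes 2 had the higher mean in Rbfox2 KD retinas at an unadjusted p under 0.05, beside 6.42% of all genes tested. Fosb had 3.87, 4.03, 3.20 and 4.14 CPM in controls and 5.04, 5.64, 5.02 and 5.53 CPM in Rbfox2 KD mice, and Npas4 had 3.12, 3.57, 2.63 and 3.25 and 3.93, 3.66, 3.59 and 4.36 CPM. The groups did not overlap in either gene, as in 7.04% of all genes, and M909 lay with the other Rbfox2 KD mice in both. The list had a median log2 fold change of 0.054 and 0 of 11 passed the adjusted test by edgeR's quasi-likelihood fit, while DESeq2 and edgeR's likelihood ratio test each called 1 (Fosb). The part of handling in the heat shock values was not tested.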

How the data were processed

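Whole-retina poly(A) libraries of 4 Rbfox2 KD and 4 control mice, 1 per mouse, were used, grouped by the genotype in the labels. The authors aligned reads to mm10 with STAR, counted uniquely mapped fragments per gene with HTSeq, and deposited raw counts together with FPKM values. Both a RefSeq and an Ensembl annotation are named for this step, and strand use is not given in the sources used here. All genes listed reach 5 counts in 4 mice or more. The deposited FPKM values were used only for levels between genes. The table also holds 16 per-mouse columns of adjusted counts and ratios and the authors' own fold changes and p-values, none of which were used.

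Low counts were removed by filterByExpr of edgeR 4.0.16 (R 4.3.3), library sizes scaled by TMM, and the groups compared in a quasi-likelihood fit with group as the only term. Adjustment was by Benjamini-Hochberg over 16797 genes, with a threshold of 0.05. The SE of a log2 fold change is its size over the square root of the F statistic. Single genes were also compared by a two-sided exact permutation test over 70 groupings of log2(CPM + 0.01). Counting floors of 3 counts equal 0.0144 to 0.0189 CPM, so that the number of mice limits the precision of the members more than depth does. No 2 libraries of a group agreed within sampling noise.

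The alternatives were DESeq2 1.42.0, limma-voom (limma 3.58.1), the likelihood ratio test, upper-quartile, RLE and total-count scaling, no filter, at least 10 counts in every sample, 1 surrogate variable (sva 3.50.0), and leaving out each mouse or M901 and M902. The procedure was checked on simulated counts with changes larger than that of any member. The check therefore does not cover effects of the size reported here. The members, lists and tests were chosen with earlier results of these data known. The text names the 10 members, Rbfox2, Hsf1 and Hsf2, up to 3 highest and 3 lowest genes per list among those with an unadjusted p under 0.05, and the 10 genes most like the member score. Stip1, St13, Egr1, Junb, Ier2, Dusp1 and the library markers were named in addition, after their values were seen. Promoters came from RefSeq (GRCm38.p6) and gene positions from GENCODE M21 (GRCm38).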

Additional observations from a re-analysis of the deposited data

Results flagged for a closer look

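Of 20 sets of 4 values (10 members in 2 groups), 1 held a mouse far from the other 3, where chance gives about 1 in 20. Hspa4 in the control M833 was 239.9 CPM, and its gap to the nearest control was 84.1% of the range of the control group, above the limit of Dixon's test for 4 values. Without M833 the log2 fold change of Hspa4 was 0.17 instead of 0.13, with an adjusted p of 0.121 (edgeR). M833 was also the mouse with the lowest ganglion cell markers.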

How the results depend on the processing

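Of 180 member values under 18 alternatives, 168 kept their direction and their side of the threshold, 2 passed it and 10 turned sign. DESeq2 called 2 members (Hspa8 and Hsph1) and 460 genes in all, and the likelihood ratio test called 164 genes and 0 members. With 1 surrogate variable 5 genes were called, and 0 members and 5 of the 69 other chaperone genes had an unadjusted p under 0.05. Without M901 and M902 these numbers were 1, 0 and 7. Leaving out 1 mouse at a time gave between 5 (without M893, M901, M909 or the control M896) and 35 genes called (without M833), 2 to 6 members with an unadjusted p under 0.05 (6 without M909), and 12 to 27 of the other chaperone genes. The share of all genes with an unadjusted p under 0.05 was counted only in the main fit of all 8 mice. The log2 fold change of Hspa1a turned to -0.0021 with total counts only, -0.020 with the surrogate variable, -0.017 when M901 and M902 were left out, and to between -0.037 and -0.00065 without M894, M896, M893 or M902, and reached 0.081 without M909. That of Hspa1b turned to -0.014 with the surrogate variable. That of Dnaja1 turned to -0.0054 with that variable and to -0.0081 when M901 and M902 were left out. The cause was not tested. No paired analysis was possible because the labels give the mice no shared replicate numbers. With 4 mice per group, differences as small as those of most members were not detectable, and the tests call none of them absent.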
